A study of Pimephales promelas with 338 samples.

Results

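Metribuzin-DA, the deaminated product of the herbicide metribuzin, was given to larvae of the fathead minnow (Pimephales promelas), which were measured whole, as a dose series of 8 codes, D1 to D8. The dose series comprised the 24 of 338 libraries whose columns in the deposited count table carried the chemical's number and whose treatment label named it. They were compared with the 3 DMSO (solvent control) libraries from the same plates. Every code was present once on each of 3 plates, so its 3 libraries are named by their plate as replicate A, B or C.

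Metribuzin is a triazinone that blocks photosystem II in plants, and its deaminated form arises from it in soil and in organisms. Animals commonly handle such foreign compounds by conjugation. UDP-glucose dehydrogenase, encoded by ugdh, makes UDP-glucuronic acid, from which glucuronosyltransferases transfer glucuronic acid to their substrates. Glutathione is kept reduced by glutathione reductase, encoded by gsr. In vertebrates, the transcription factor NRF2 (nfe2l2), held back by KEAP1, drives genes of glutathione synthesis and recycling.

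Expression was measured with TempO-Seq, in which detector oligonucleotides are ligated on their transcripts, amplified and counted by sequencing. Larvae were exposed for 24 h to 1 of 8 nominal concentrations between 66.67 and 0.021 µM or to DMSO alone, with DMSO brought to the same share in all wells and to no more than 0.34%. The design pooled 5 larvae into each homogenate but excluded those that had died, and the number in each pool is not known. Which of D1 and D8 was the strongest solution is not stated by the labels. Doses are therefore named by code, and slopes are per step towards D1. On every plate the position that ends the metribuzin-DA column names runs from letter A at D1 to letter H at D8. If that letter is a plate row, effects of code and of row cannot be told apart. The labels name neither the age nor the strain of the larvae. The exposure also held 22 libraries of 2-tert-butyl-4-methoxyphenol (an antioxidant food additive, butylated hydroxyanisole) at codes D1 to D8, with 1 library at D1, and 3 caffeine libraries as a positive control.

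Totals per library ran from 497042 to 996726 counts for metribuzin-DA and from 620408 to 689707 for DMSO, and D1 had the lowest median total, 623400. Of 1832 probes, 1589 passed the filter on low counts. Each list of markers, of muscle, liver, gut, eye, nervous system, blood and skeleton, had detected members, as the whole-body label requires. The top genes included desmin (desma) at 969 CPM, the photoreceptor gene pde6c at 847 CPM and the collagen gene col1a2 at 19664 CPM on average. At least 20 counts were reached by 4 of 8 muscle, 2 of 4 blood, 25 of 40 nervous system and 24 of 27 skeleton genes. All 8 liver, 6 gut and 6 eye genes reached them. No library stood apart by correlation over the tested probes: the median for a library's log2 levels with the other libraries was between 0.973 and 0.980. Such a correlation can miss a library that departs in a few genes, as D2 replicate C did in mmp9 and saa (below). More probes were called between plates than among codes. In edgeR's quasi-likelihood test with Benjamini-Hochberg adjustment, 92 of 1479 probes (6.22%) differed between plates A, B and C. Anywhere among the 8 codes and DMSO, 5 (0.338%) differed. The counts do not compare the sizes of the effects, since a plate holds more libraries than a code. With a plate left out, 4 to 49 probes differed between the other plates. Plate was a block in all main fits. Levels are given as CPM, the library-size-scaled count after TMM normalisation, and a gene is called changed at an adjusted p below 0.05.

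In the fit of all libraries, differences called between metribuzin-DA and DMSO were few and were found at D1. Against DMSO, 3 of 1589 probes (0.189%) rose at D1 and none fell: both probes of ugdh and the probe of gsr. These 3 probes were also all the calls at any code (0.189%). At D2, D3, D4, D5, D6, D7 and D8 no probe was called in either direction (0%) by edgeR, and DESeq2 called none at these codes either. This placement of the calls depended on plate A. Without that plate D1 kept 1 call, a ugdh probe, while 2 probes were called at D2, 1 at D3, 4 at D4 and 1 at D5. Unadjusted p-values below 0.05 numbered 83 at D1 (5.22%) and between 56 (D7) and 105 (D5) at the other codes, where 79.45 of 1589 would fall below that limit without any change. With 3 libraries a group the median standard error of a D1 log2 change was 0.19 for probes with a mean of at least 20 counts, which gives a 95% interval of about 0.38 to either side. Smaller changes were therefore not detectable for most genes. The interval is not adjusted for the number of tests, so larger changes could also go uncalled. At D1 the log2 changes of prdx1 (1.17 ± 0.26) and mao (0.67 ± 0.20), for example, were not called.

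The first ugdh probe (110683) read 2430, 2096 and 2080 CPM in D1 replicates A, B and C, against 1063, 1301 and 1302 CPM in the DMSO replicates. Over the 21 libraries of D2 to D8 it ranged from 1053 to 1719 CPM, with a median of 1278. All 3 D1 libraries lay above every other library, and the groups D2 to D8 overlapped DMSO. The log2 fold change at D1 was 0.85 ± 0.13 (SE, n = 3), or 1.80-fold, with an edgeR adjusted p of 7.53e-04. D1 exceeded DMSO on each of the 3 plates, by 1.19, 0.69 and 0.68 on the log2 scale.

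The second ugdh probe (110867) was also higher at D1; without probe sequences, which part of the gene each of them reads is not known. Its D1 libraries stood at 1308, 954 and 1049 CPM, against 518, 701 and 723 CPM in DMSO. D2 to D8 ranged from 471 to 813 CPM with a median of 665, so D1 again lay above all 24 other libraries. The log2 fold change at D1 was 0.77 ± 0.16 (SE; adjusted p = 0.0427). Replicate A carried the highest D1 value and the lowest DMSO value of this probe. Without plate A the change was 0.50 (adjusted p = 0.272), and with the DMSO library of plate A left out it was 0.63 (adjusted p = 0.388). The probe was called at D1 in 2 of 9 fits that each left out a plate or a single library (adjusted p between 0.00667 and 0.794), and the first ugdh probe in 7 of 9. The first probe missed the threshold without plate B (0.90, adjusted p = 0.0504) and without plate C (0.94, adjusted p = 0.180).

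Glutathione reductase, gsr, had 104, 109 and 116 CPM in D1 replicates A, B and C. Its DMSO libraries were spread more widely, at 32.9, 72.7 and 49.0 CPM, and D2 to D8 ranged from 39.0 to 84.3 CPM with a median of 64.6. D1 was thus above all other libraries, while the remaining codes overlapped DMSO. The log2 fold change at D1 was 1.13 ± 0.19 (SE), or 2.18-fold, with an edgeR adjusted p of 0.00379. The difference on plate B was 0.58, against 1.63 on plate A and 1.23 on plate C, and gsr was called in 4 of the 9 fits with a plate or library left out. It missed the threshold without plate A (adjusted p = 0.184) or plate C (0.926), and without the single libraries DMSO A (0.109), DMSO C (0.185) or D1 A (0.130). Without plates as a block, the change in gsr had an adjusted p of 0.255 and that in the second ugdh probe 0.219, and the first ugdh probe was the only call at D1.

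**Figure D1:**
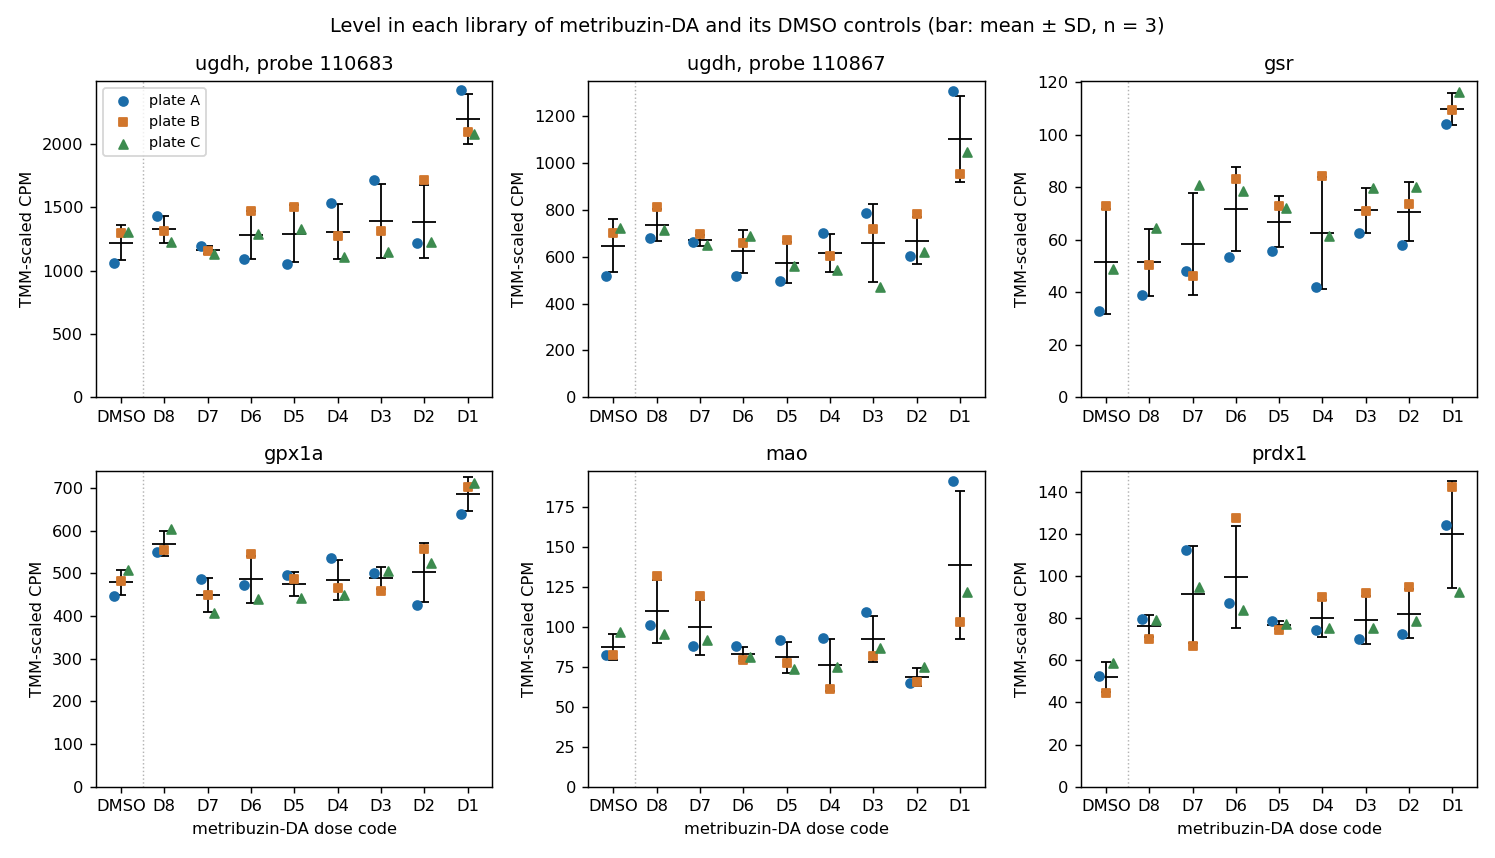
TMM-scaled CPM of 6 probes in every library of metribuzin-DA (D8 to D1) and of DMSO, with a symbol for each plate; bars are means with SD (n = 3). Both ugdh probes, gsr and gpx1a have all 3 D1 libraries above every other library, and prdx1 has its 3 DMSO libraries, at 44.6 to 58.7 CPM, below all others.

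Peroxiredoxin 1 and glutathione peroxidase 1 came next in order of p. The gene prdx1, whose product reduces peroxides, read 124, 142 and 92.4 CPM at D1 and 52.4, 44.6 and 58.7 CPM in DMSO, a log2 difference of 1.17 ± 0.26 with an adjusted p of 0.142. The 3 DMSO libraries lay below all 24 metribuzin-DA libraries, of which D2 to D8 spanned 66.8 to 127 CPM. Caffeine libraries of the same exposure read 61.7, 121 and 72.8 CPM for prdx1, all above those of DMSO. Libraries of butylated hydroxyanisole on the same plates read 42.4, 58.8 and 45.6 CPM at D8 and 101, 49.1 and 52.9 CPM at D7. At both of these codes they overlapped DMSO, while at D1 to D6 they read 66.1 CPM or more. The same 3 DMSO libraries serve in every one of these comparisons. With DESeq2 the D1 difference in prdx1 had an adjusted p of 0.0410.

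The gene gpx1a, a glutathione-dependent peroxidase, read 640, 703 and 713 CPM at D1 and 448, 481 and 508 CPM in DMSO. Its highest value outside D1 was 604 CPM, in D8 replicate C. The log2 difference from DMSO was 0.52 ± 0.12, with an adjusted p of 0.215 over all codes and of 0.0323 when p-values were adjusted within D1.

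Because every comparison with DMSO rests on the same 3 control libraries, D1 was also set against the mean of D2 to D8, a comparison added after the data had been seen. It uses no control library but shares the D1 libraries with the comparison above. Its p-values were adjusted within the comparison and those of D1 against DMSO over all codes, so the counts of calls are not directly comparable. No other code was set against the rest. D1 was the code with the calls against DMSO, and the p-values are not adjusted for its choice. Adjusted within its own code, D1 against DMSO also had 5 calls. In the comparison with D2 to D8, 5 of 1589 probes (0.315%) rose and none fell in edgeR's test, with 110 at an unadjusted p below 0.05. These were both ugdh probes (log2 0.76 ± 0.09, adjusted p = 2.81e-07, and 0.78 ± 0.11, adjusted p = 6.52e-06), gsr (0.79 ± 0.13, adjusted p = 2.89e-04), gpx1a (0.48 ± 0.09, adjusted p = 9.56e-04) and mao (0.69 ± 0.15, adjusted p = 0.00708). The same 5 probes were called with DESeq2, with RLE factors, without the filter and without the block. Both ugdh probes were called in each of the 6 fits that left out a plate or a D1 library. The gsr difference missed the threshold without plate A (adjusted p = 0.153), and that of gpx1a without plate C (adjusted p = 0.252) or without its D1 library (adjusted p = 0.0731).

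Monoamine oxidase, mao, which oxidises amine neurotransmitters, read 191, 103 and 122 CPM at D1 and between 60.8 and 132 CPM at D2 to D8. The D1 value of plate A was far above the other 2, and D1 overlapped D3, D7 and D8. Without the D1 library of plate A the difference was 0.38 (adjusted p = 0.753), without plate A 0.43 (adjusted p = 0.549) and without plate C 0.75 (adjusted p = 0.252).

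**Figure D2:**
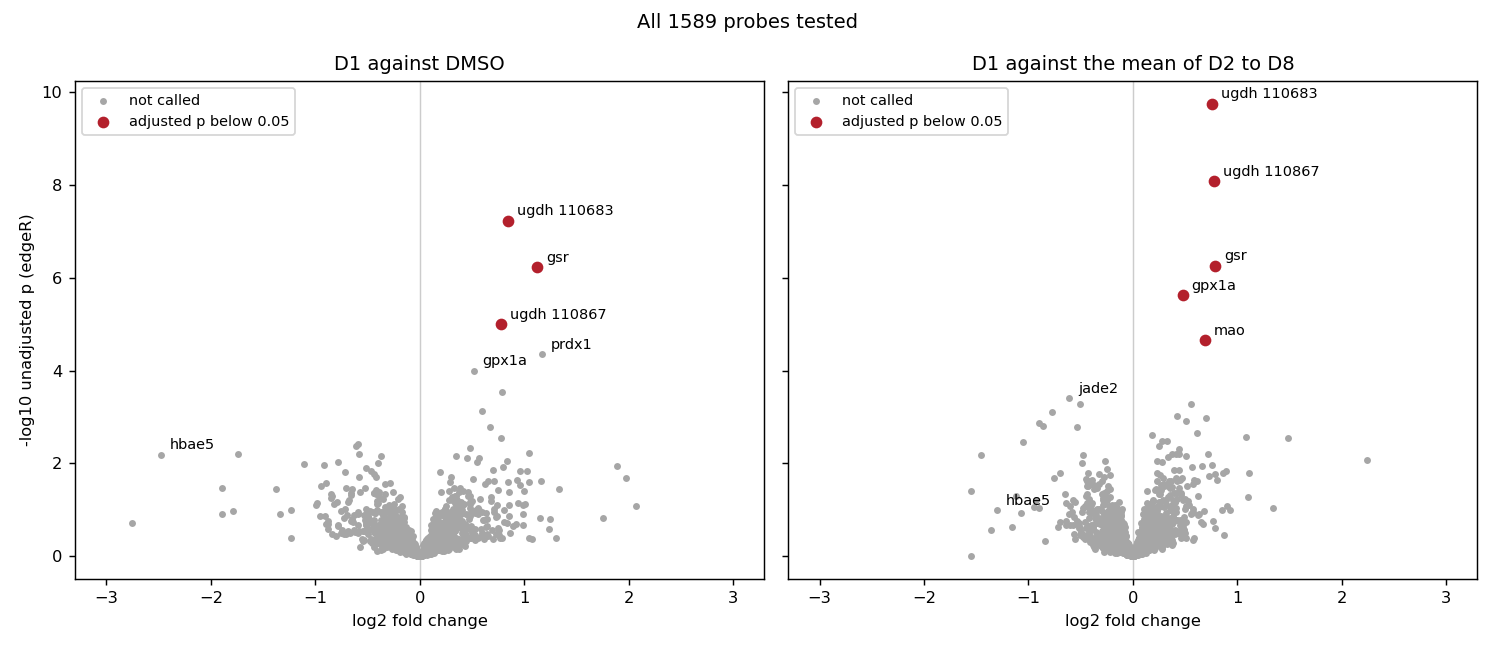
Log2 fold change against -log10 of the unadjusted edgeR p for all 1589 probes, for D1 against DMSO (left) and for D1 against the mean of D2 to D8 (right), with called probes in red. The called probes, 3 on the left and 5 on the right, all lie on the side of higher levels at D1. Calls on the left were adjusted over all codes and those on the right within the comparison.

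The oxidative stress list held 22 genes, all of which were tested. At D1 against DMSO 1 of them, gsr, was called up and none down, beside a background of 0.189% of all probes. 20 of the 22 had a log2 difference above 0, with a median of 0.23, while 49.3% of all probes lay above 0, with a median of -0.01. The quinone reductase nqo1 (-0.10 ± 0.25 at D1) is counted with the biotransformation probes below and not among the 22. The oxidative stress list was written with earlier results of these data known, so its direction is no independent evidence. Of its members in glutathione synthesis, gclc, the catalytic subunit of glutamate-cysteine ligase, read 172, 177 and 196 CPM at D1 against 129, 137 and 126 CPM in DMSO (log2 0.48 ± 0.16, adjusted p = 0.940). The groups did not overlap, but D2 to D8 spanned 103 to 209 CPM and covered both. The modifier subunit of the same enzyme, gclm, differed by 0.03 ± 0.15.

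The regulator nfe2l2b differed by 0.47 ± 0.30 and its repressor keap1b, at low counts, by 0.07 ± 0.53. The superoxide dismutases sod1, sod2 and sod3b had differences of 0.16, 0.27 and 0.14, and the haem oxygenase hmox1a one of 0.19 ± 0.47, none of them called. Below 0 were gpx2 (-0.06) and prdx3 (-0.19). The values for gclc are given here because of the pathway it belongs to, and it was chosen after values had been seen.

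Of 16 probes for xenobiotic sensing and biotransformation on the panel, 11 were tested, and at D1 the 2 ugdh probes were called up and none down, beside 0.189% of all probes. The other 9 were not called at any code. The glucuronosyltransferase ugt5a1 differed by 0.45 ± 0.28 at D1, the quinone reductase nqo1 by -0.10 ± 0.25 and the xenobiotic receptor nr1i2 by 0.14 ± 0.21. The aryl hydrocarbon receptor ahr2 differed by 0.05 ± 0.11 and the receptor's repressor ahrra by 0.24 ± 0.26.

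**Figure D3:**
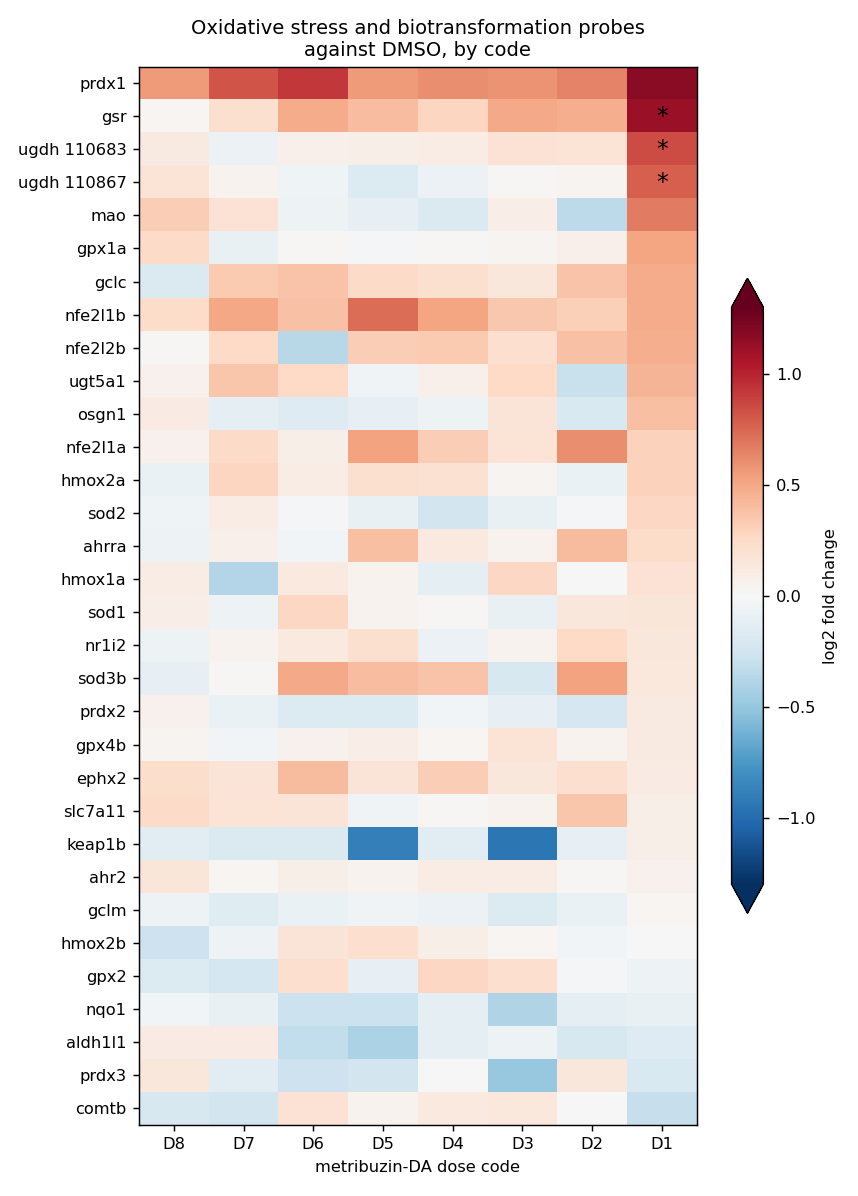
Log2 fold change against DMSO at each code (columns, D8 to D1) for tested probes of oxidative stress and biotransformation (rows, in order of the D1 value), with red for higher and blue for lower and an asterisk where the adjusted p is below 0.05. The 3 asterisks are all at D1, and prdx1 is red in every column.

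The other response lists gave no call at D1 in either direction, again beside 0.189% of all probes. Of 44 tested cell cycle and replication genes 22 had a D1 difference above 0, with a median of -0.002, and 25 of 48 tested genes of ribosomal proteins and translation factors, with a median of 0.005. Heat shock genes numbered 7, of which 2 lay above 0 (median -0.13), and endoplasmic reticulum stress genes 11, of which 8 did (median 0.11). The median D1 difference of the DNA damage list was 0.06, of the hypoxia list -0.03, of the inflammation list 0.06, of the immediate-early list -0.09, and of the glucocorticoid and clock list -0.003. Metabolic lists were as near to 0, with medians of 0.04 for fatty acid oxidation, 0.03 for sterol and fatty acid synthesis and -0.009 for carbohydrate metabolism. The 4 tested respiratory chain genes had a median of -0.07, the 27 proteasome and ubiquitin genes 0.06, and the 4 thyroid and steroid hormone genes -0.08.

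Among genes lower at D1, none was called with all libraries. Those with the smallest p against D2 to D8 were the histone acetyltransferase cofactor jade2 (-0.61 ± 0.16, adjusted p = 0.104), the retinaldehyde-binding protein gene rlbp1b (-0.51 ± 0.14, adjusted p = 0.104), the DNA ligase lig1 (-0.77 ± 0.21, adjusted p = 0.139), klhdc2 (-0.90 ± 0.26, adjusted p = 0.167) and ddias (-0.86 ± 0.25, adjusted p = 0.174). Without the D1 library of plate A, rlbp1b passed the threshold (-0.70, adjusted p = 0.0436). The 3 D1 libraries read 18.6, 16.5 and 22.4 CPM for lig1, below all other libraries, whose lowest was 24.6 CPM. In all, 4 probes (0.252%) had their 3 D1 libraries above the other 24, namely ugdh with both probes, gsr and gpx1a, and 3 probes (0.189%) had them below, namely lig1, ddias and the lysozyme gene lyz. D8, where no gene was called, had as many of each, 4 above (0.252%) and 3 below (0.189%).

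No blood gene was called at D1. The fitted differences of the 3 tested blood genes from DMSO were all below 0. The summed level of the 4 blood genes on the panel was 26.4 to 74.2 CPM at D1 against 82.5 to 195 CPM in DMSO. The haemoglobin gene hbae5 read 9.32, 51.5 and 9.80 CPM at D1 and 159, 152 and 43.4 CPM in DMSO. Its log2 difference of -2.48 ± 0.87 was not called (adjusted p = 0.940), and D2 to D8 ran from 13.1 to 135 CPM. D1 replicate B lay above DMSO replicate C, so the groups overlapped. In pools of whole larvae fewer cells of a type and less RNA per cell cannot be told apart. Whether the amount of blood bears on the rise in ugdh and gsr was not tested. Of 8 liver and plasma protein genes 1 had a D1 difference above 0, with a median of -0.20 and no call.

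The trend over the codes used the 24 metribuzin-DA libraries and no control. It called 3 probes (0.189%), all rising towards D1, with 144 of 1589 at an unadjusted p below 0.05. The slopes were 0.080 ± 0.014 log2 units per step for the first ugdh probe (adjusted p = 0.00160), 0.11 ± 0.02 for gsr (adjusted p = 0.00518) and 0.065 ± 0.015 for socs2 (adjusted p = 0.0467). With D1 left out the slope of ugdh was 0.026 (adjusted p = 0.484) and that of gsr 0.061 (adjusted p = 0.247), so these calls rested on D1. The slope of gsr also missed the threshold without D8 (adjusted p = 0.0835). In 6 fits that left out a plate or a D1 library the first ugdh probe was called in 4 and gsr in 2. Without plate B both had an adjusted p of 0.0680, and without plate C both had 0.0739. The slope of gsr was also lost without plate A (adjusted p = 0.129) and without the D1 library of plate A (0.0532). For ugdh the means of D2 to D8 were between 1160 CPM at D7 and 1391 CPM at D3.

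The suppressor of cytokine signalling socs2, which dampens growth hormone signalling, followed another course. It read 379, 438 and 378 CPM at D8, and 693, 658 and 693 CPM at D3. The D1 libraries, at 480, 478 and 557 CPM, overlapped the DMSO libraries at 503, 546 and 543 CPM. The level thus rose from D8 to D3 and was lower again at D1, where the difference from DMSO was -0.07 ± 0.14. With D1 left out the slope was 0.11 (adjusted p = 0.00124), and with D8 left out it was 0.041 (adjusted p = 0.845). The slope of socs2 was called in 0 of the same 6 fits (adjusted p from 0.0502 to 0.713).

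Genes next in order of p for the trend were not called. The phenylalanine hydroxylase gene pah had a slope of 0.065 ± 0.017 (adjusted p = 0.149), with 285, 277 and 311 CPM at D8 against 347, 497 and 431 CPM at D1. The mitotic gene cdca8 had -0.066 ± 0.019 (adjusted p = 0.302), with 142, 165 and 127 CPM at D8 and 118, 88.6 and 101 CPM at D1. The DNA ligase lig1 (-0.085), ak3 (-0.055), the collagen gene col16a1 (-0.061) and the apolipoprotein gene apoc1 (-0.065) had the same adjusted p of 0.302. Without plate A the slopes of pah (0.083, adjusted p = 0.0264) and apoc1 (-0.074, adjusted p = 0.00606) passed the threshold, and without D1 that of cdca8 did (-0.10, adjusted p = 0.0437). Of the 44 cell cycle genes 9 had a slope above 0, with a median of -0.018 per step, beside 49.2% and -0.001 for all probes, and none was called.

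No gene was called for the mean of the 8 codes against DMSO (0%), with 69 at an unadjusted p below 0.05, and DESeq2 also called none. The mean of D2 to D8 against DMSO, added after the data had been seen, gave no call either (0%), with 72 at an unadjusted p below 0.05, and none with DESeq2. The smallest p-values in the former were those of nags, which makes the activator of the urea cycle (-1.46 ± 0.39), prdx1 (0.73 ± 0.21) and isl2b (-0.78 ± 0.22), each with an adjusted p of 0.595. Single codes had a few differences short of the threshold. The matrix metalloprotease gene mmp9 differed by 2.15 ± 0.50 at D2 (adjusted p = 0.215), with 408 CPM in replicate C but 63.8 and 52.4 CPM in replicates A and B, against 46.4, 49.6 and 25.2 CPM in DMSO. The endoplasmic reticulum gene arl6ip1 differed by -0.72 ± 0.18 at D5 (adjusted p = 0.396), with 157, 165 and 151 CPM against 175, 273 and 333 CPM in DMSO, and the groups did not overlap.

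The test for any difference among the 8 codes and DMSO, likewise added after the data had been seen, called both ugdh probes, adi1, oclna and saa. The methionine salvage gene adi1 read 85.5, 53.6 and 78.4 CPM at D1, 16.5, 28.1 and 14.0 CPM in DMSO and 10.9, 4.77 and 2.78 CPM at D7. Its D1 difference from DMSO, 1.89 ± 0.72, was not called (adjusted p = 0.940). The D1 libraries did not all lie above every library of the other codes for adi1. The tight junction gene oclna was highest at D4, with 417, 412 and 369 CPM, and D5, with 400, 373 and 376 CPM, and the D4 libraries were above the 361, 288 and 269 CPM of DMSO. The acute-phase gene saa had 200 CPM in D2 replicate C and 18.6 CPM or less in every other library.

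Caffeine in the same exposure was also compared with DMSO, with 3 libraries a group. The true size of its effect is not known, so its calls do not measure what 3 libraries could show. In edgeR's test 1 of 1589 probes (0.0629%) was called, the small heat shock protein gene hspb8. It rose by 0.54 ± 0.12 (adjusted p = 0.0499). The caffeine p-values were adjusted within that comparison and those of D1 over all codes together, so the counts of calls are not directly comparable. Adjusted within its own code, D1 had 5 calls. At D1 of metribuzin-DA hspb8 read 681, 596 and 693 CPM, at or near the low end of the 24 libraries, which ran from 596 to 861 CPM. The caffeine call was lost in each of 6 fits that left out a plate or a DMSO library. The genes called at D1 were not called with caffeine. Its differences from DMSO were -0.24 ± 0.13 and -0.24 ± 0.16 for the ugdh probes and 0.05 ± 0.21 for gsr. The 95% interval for gsr ran from -0.36 to 0.45, so the absence of a rise was not shown. For prdx1, not called at D1 either, the caffeine difference was 0.69 ± 0.26 (edgeR adjusted p = 0.879).

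2-tert-Butyl-4-methoxyphenol was given on the same plates at the same codes over the same nominal range, and the comparison with it needs no control library. The slopes of 291 of 1589 probes (18.3%) differed between the 2 chemicals. At matched codes where both had 3 libraries, 62 probes (3.9%) differed at D2, 10 (0.629%) at D3 and 0 (0%) at D4, with 2 or fewer at each of D5 to D8 and p-values adjusted over all 8 codes. At D1 2-tert-butyl-4-methoxyphenol had a single library, on plate A, so its own spread there was not measured. The 249 probes (15.7%) past the threshold at D1 assume that it varies like the other groups, and this count is not comparable with those of the other codes. Without plate A, and so without that code, 29 probes differed at any code. The slopes also include the single D1 library of 2-tert-butyl-4-methoxyphenol. The p-values of D1 entered the joint adjustment over the codes, so the counts at D2 to D8 depend on that library as well. This comparison at single codes was also added after the data had been seen.

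At D2, where both had 3 libraries, gsr stood at 58.1, 73.7 and 80.0 CPM with metribuzin-DA and at 161, 228 and 208 CPM with 2-tert-butyl-4-methoxyphenol. The log2 difference was -1.49 ± 0.17 (adjusted p = 4.78e-08). The genes gclc and prdx1 were likewise lower with metribuzin-DA at D2, by 1.04 ± 0.15 and 1.03 ± 0.23 on the log2 scale, both called. At D2 the second ugdh probe read 602, 784 and 618 CPM against 1307, 1328 and 1327 CPM, a difference of -0.99 ± 0.15 (adjusted p = 1.80e-05). The first ugdh probe was also called lower with metribuzin-DA at D2 (-0.61 ± 0.13, edgeR adjusted p = 0.00196). Here mao was lower with metribuzin-DA by 1.40 ± 0.20.

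At D1 the values are those of 3 libraries beside a single one, in which a difference of that pool and of the chemical cannot be told apart. The fitted log2 differences of gsr, gclc and prdx1 were -1.61, -1.60 and -1.79, with lower values for metribuzin-DA. For gclc this set 172, 177 and 196 CPM against 519 CPM. The ugdh probes read 2430, 2096 and 2080 against 1724 CPM and 1308, 954 and 1049 against 1077 CPM. Their differences were 0.35 ± 0.19 (adjusted p = 0.574) and 0.03 ± 0.22 (adjusted p = 0.994), and that of mao was 0.01 ± 0.28. The 95% intervals of these differences ran from -0.02 to 0.72 and from -0.40 to 0.46 for the ugdh probes and from -0.54 to 0.56 for mao, so equal levels were not shown. The slope of the first ugdh probe was not called different between the chemicals (-0.042 ± 0.023, edgeR adjusted p = 0.198). Those of the second ugdh probe (-0.087 ± 0.027, adjusted p = 0.0192) and of gsr (-0.25 ± 0.03, adjusted p = 1.25e-07) were. Whether the ugdh and gsr differences between the chemicals themselves differ was not tested.

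**Figure D4:**
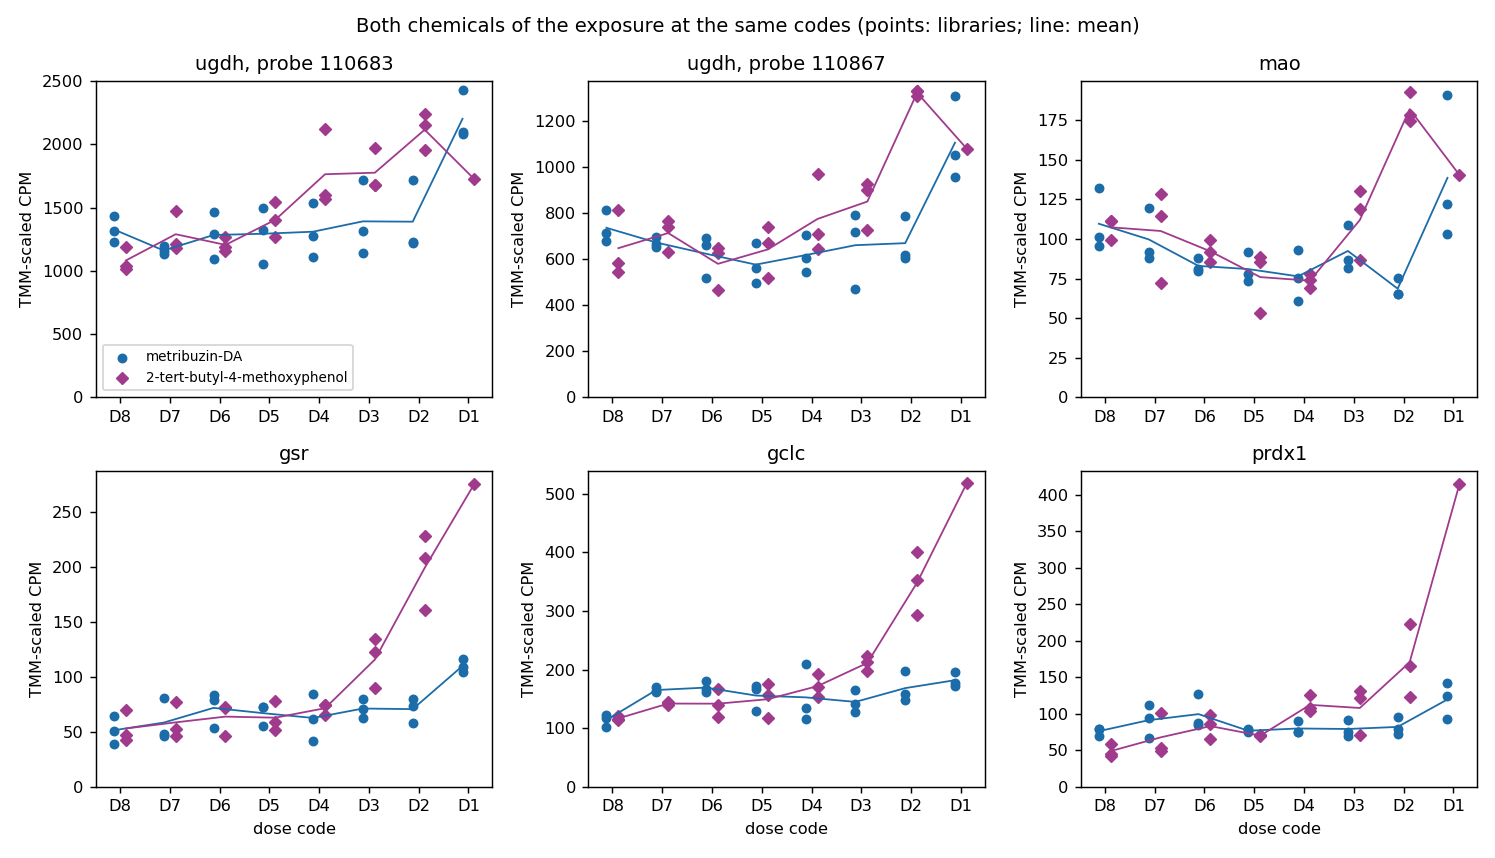
TMM-scaled CPM by code (D8 to D1) for 6 probes with metribuzin-DA (circles) and 2-tert-butyl-4-methoxyphenol (diamonds); points are libraries, lines join means, and D1 of 2-tert-butyl-4-methoxyphenol is 1 library. For the first ugdh probe the metribuzin-DA libraries at D1 reach the range of the other chemical at D2, and for gsr and gclc they stay below it.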

How the data were processed

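Raw counts per probe were taken as deposited by the authors, as whole numbers in 1 table of 338 columns, all of which matched a sample's labels, and in a table per chemical. The metribuzin-DA columns of both held the same values in all cells. Reads were converted with bcl2fastq, per the submitters' processing notes. The aligner, build, annotation and probe sequences were not given in the sources used here. No genome was used. Of 1829 symbols 1722 matched the RefSeq table by symbol, and the probes of the 3 symbols that had a pair were tested separately. PCR reads without molecular identifiers are not independent molecules.

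Counts were analysed in R 4.3.3 with edgeR 4.0.16 (limma 3.58.1) and, as an alternative, DESeq2 1.42.0. All 52 libraries of the exposure entered one quasi-likelihood fit, with TMM normalisation, a filter on low counts (filterByExpr, minimum count 10), a mean for each group and the plate letter as a block. This left 32 residual degrees of freedom. The test for any difference used the 24 metribuzin-DA and 3 DMSO libraries, of which 1479 probes passed the filter. P-values were adjusted by Benjamini-Hochberg over all probes and, for single codes, over the 8 codes together, with a threshold of 0.05. The script was tested on simulated data. CPM values carry no length scaling, so levels are not compared between genes.

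The plates pair the samples by the labels, which place the pools of a letter on one plate. Deviations from group means had a mean correlation of 0.059 within plates and -0.029 between them. The second value follows from the first, since the deviations of a group cancel over its plates, and is no separate evidence. Pools are the replicates, so p-values measure the spread between pools. The libraries of a group differed by more than counting noise, and none was counted as a duplicate.

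Genes were named by rule: with a mean of at least 20 counts, those called for the trend (10 per direction), and at each code and for the mean of the codes (5 per direction), filled up to 5 with the smallest unadjusted p. The same rule was applied to D1 against D2 to D8, a comparison added after the data had been seen. Not all genes named by the rule appear in the text. Genes outside the rule (nfe2l2b and other list members, adi1, saa, hspb8 and lyz among them) were chosen after their values were seen or by their list. The members and the 24 gene lists were chosen with earlier results of these data known, and symbol patterns that caught unrelated genes were narrowed after values had been seen. Alternatives were RLE factors, no filter, no block, DESeq2, adjustment within each code, a fit of metribuzin-DA and DMSO alone, and leaving out plates or single libraries. The trend was also taken without D1 and without D8. One gene of the lists is counted with them but not reported here.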

Additional observations from a re-analysis of the deposited data

Results flagged for a closer look

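Slopes over the codes that differed between metribuzin-DA and 2-tert-butyl-4-methoxyphenol are listed here for the probes called for metribuzin-DA, with edgeR's adjusted p. For gsr the difference was -0.252 ± 0.032 log2 units per step (SE; adjusted p = 1.25e-07). For gpx1a it was -0.0886 ± 0.021 (adjusted p = 0.00221). For the second ugdh probe (110867) it was -0.0866 ± 0.027 (adjusted p = 0.0192). Each is a slope of metribuzin-DA minus that of the other chemical, so the level rose less steeply towards D1 with metribuzin-DA. Code D1 of the other chemical rests on 1 library, which enters each of these slopes.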

How the results depend on the processing

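Without the replicate block the calls fell from 3 to 1 at any code, from 3 to 1 at D1 and from 3 to 1 for the trend (ugdh probe 110683 each time), and from 1 to 0 for caffeine, while the 5 genes of D1 against D2 to D8 were the same genes. Without the filter the caffeine call was also lost (0), and the trend kept 2 of its 3 calls, without socs2 (adjusted p = 0.0501). With metribuzin-DA and DMSO libraries alone, D1 had 3 calls, with prdx1 (adjusted p = 0.0336) and without ugdh probe 110867 (0.122), the trend lost socs2 (0.0794), and D1 against D2 to D8 gained adi1. Adjusting within each code gave 5 calls at any code and at D1, adding prdx1 and gpx1a. The trend without D1 had 4 calls, acaa1, cdca8, socs2 and znf143a, of which 1 was shared with the main fit. Without D8 it had 3 calls, gpx1a and both ugdh probes, of which 1 was shared. Leaving out a plate or a library gave 0 to 6 calls at any code, 0 to 3 at D1, 0 to 2 at D2, 0 to 1 at D3, 0 to 4 at D4, 0 to 1 at D5, 0 to 4 for the trend, 3 to 7 for D1 against D2 to D8, 0 for caffeine in each case, 29 to 273 between the chemicals at any code (29 without plate A, which holds the only D1 library of 2-tert-butyl-4-methoxyphenol) and 4 to 49 between plates. At D1, 0 were called without plate C, and 1 without plate A, without plate B, without the DMSO library of plate A or without the D1 library of plate A. The calls at D2 (apoc1 and mmp9), D3 (apoc1) and D4 (apoc1, arl6ip1, col16a1 and eif3c) all came without plate A. That at D5 (arl6ip1) came without plate A and without its DMSO library. The cause was not tested. The slope difference without plate A was not run for the same missing library. No named result reversed in sign. Of 1340 alternative values for 110 named results, 1284 kept their side of the threshold, 43 lost a call and 13 gained one. Most of the named results were not called in the main fit, so most values kept their side by staying uncalled. All 43 lost calls belong to the results called in the main fit: 3 at D1, 3 for the trend and 5 for D1 against D2 to D8. With 3 libraries a group, changes under about 0.38 (log2) were mostly not detectable, and larger ones could also go uncalled after adjustment.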

Other observations

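One library, D2 replicate C, held the highest level of a pair of inflammation-related genes. The matrix metalloprotease gene mmp9 read 408 CPM there, against at most 66.8 CPM in the other 26 metribuzin-DA and DMSO libraries, and the acute-phase gene saa read 200 CPM, against at most 18.6 CPM. In D2 replicates A and B they read 63.8 and 52.4 CPM (mmp9) and 12.8 and 6.55 CPM (saa).

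D8 had the most probes besides D1 whose 3 libraries lay apart from all others. The collagen gene col5a3b, the neuronal transcription factor gene neurod1, pygo1 and the glutaminyl-tRNA synthetase gene qars1 were above, and the deiodinase gene dio1, klhl24a and znf143a were below. None was called against DMSO at D8.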
